A study of Schmidtea mediterranea with 100 samples.

Results

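In sorted cells of the planarian flatworm Schmidtea mediterranea, 79 transcripts without a gene name were abundant in the G1 and PM gates and at least 2-fold lower in the RNA-low gate. They were chosen on the bulk libraries, on their CPM, the reads of a transcript per 1000000 counted reads of its library. A transcript was a member when it carried only an identifier, reached at least 50 CPM in both G1 and PM, differed by less than 2-fold between these gates, and stood at 2 times RNA-low or more in both. The rule kept 79 of 67386 transcripts, 67221 of which had no gene name. All 79 carry identifiers that begin SmedASXL_, which the tables pair with no gene name, sequence or genome position, so no role is given to any of them. The levels in G1, PM and RNA-low chose the members and are a description. The S/G2/M library and the single cells were not part of the rule, but a ratio of S/G2/M to another gate has a level used by the rule as its denominator.

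The study sorted whole-body cells of the asexual clonal strain CIW4, fed on beef liver, stained with the DNA dye Hoechst and the RNA dye pyronin Y. All samples share that strain and stain, and no other treatment is named. There were 100 samples, namely 1 bulk library from each of the S/G2/M, G1, PM and RNA-low gates and 96 single RNA-low cells made with Smart-seq2, a plate method that does not tag molecules. PM is used as the labels give it, unexplained, and no animals or pools are named, so the 96 cells count as 1 sample.

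Neoblasts are the dividing stem cells of adult planarians, and its only dividing cells outside the germ line. Hoechst separates cells by DNA content, so that cells that are copying or have copied their DNA fall into the S/G2/M gate. Pyronin Y reports how much RNA a cell holds. Epidermal progeny are cells that have left the cycle towards the epidermis, and the prog-1 and prog-2 families are their early markers.

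With 1 library per gate there is no replicate check, no test and no p-value for any difference between gates. The bulk libraries held 47338591 to 74968402 counted reads. Repeated reading of the same fragments was estimated at 22 reads per fragment in S/G2/M, 10 in G1, 26 in PM and 5 in RNA-low, which left an estimated 1820715 to 11477133 fragments. The 95% intervals of bulk levels and ratios are exact binomial intervals on these fragments. Those of shares of cells are exact binomial (Clopper-Pearson) intervals on numbers of cells of 1 sample. Both cover counting error only. The neoblast genes piwi-1, piwi-2, piwi-3 and bruli summed to 9031 CPM in S/G2/M, 6295 CPM in G1, 3386 CPM in PM and 7704 CPM in RNA-low. The 18 prog transcripts summed to 5645, 32610, 20095 and 1926 CPM in the same gates, and 1 of them was at 0 in RNA-low. Replication and mitosis genes (PCNA, mcm2 and CyclinB2) summed to 790 CPM in S/G2/M, 267 CPM in G1, 79.3 CPM in PM and 92.5 CPM in RNA-low. The epidermal marker vim-1 stood at 9.40, 18.1, 112 and 2.09 CPM, and the muscle gene titin at 0.454, 3.16, 12.8 and 4.77 CPM. The neuronal genes COE and elav-2 summed to 15.5, 52.0, 37.9 and 144 CPM. The gamma neoblast and intestine genes NXK2.2_Dth-1, porcnA and porcn-B summed to 167, 151, 116 and 146 CPM. Most of that sum came from porcnA and porcn-B, as NXK2.2_Dth-1 alone stood at 21.8, 23.2, 13.1 and 4.69 CPM. The secretory marker mucin was at 0 in S/G2/M and PM and below 0.21 CPM in G1 and RNA-low. The part of these marker levels in the members' levels was not tested. In bulk libraries, fewer cells of a type and less of a transcript per cell cannot be told apart.

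Few transcripts had the required pattern. Of 2172 unnamed transcripts at 50 CPM or more in G1 and PM, 2086 (96.0%) were less than 2-fold apart in these gates. G1 stood at 2 times RNA-low or more for 5.66% of the 2172 and PM for 5.43%, and the 79 members were 3.64% of them. Ribosomal RNA took 21.9% of reads in S/G2/M, 16.8% in G1, 35.1% in PM and 16.9% in RNA-low. When CPM were computed without it, the rule kept 147 transcripts, 76 of the 79 among them. The other 2007 unnamed transcripts less than 2-fold apart are the comparison set used below.

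The members were of moderate abundance. Summed over all 79, the level was 5870 CPM in S/G2/M (interval 5790 to 5952), 10239 CPM in G1 (10155 to 10325), 9543 CPM in PM (9403 to 9686) and 2082 CPM in RNA-low (2055 to 2108). A single member ranged over 9.18 to 389 CPM in S/G2/M, 52.0 to 503 in G1, 50.3 to 909 in PM and 0.575 to 152 in RNA-low, with medians of 45.3, 95.1, 88.3 and 19.6 CPM. No few transcripts carried the sum, since the 4 most abundant members held 16.8% of it in S/G2/M, 15.7% in G1, 21.0% in PM and 16.1% in RNA-low. The mean of G1 and PM was at most 130 times the RNA-low level, with a median of 4.63 times, and 17 members were at 10 times or more. G1 was above PM for 56 members and below it for 23. This balance turned to 23 above and 56 below with totals without ribosomal RNA, so no order of G1 and PM is read from it.

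The 4 most abundant members differed in where they stood highest. SmedASXL_008454 had 389 CPM in S/G2/M, 479 CPM in G1, 909 CPM in PM and 152 CPM in RNA-low. It was highest in PM, and S/G2/M lay below G1 (log2 ratio -0.30, interval -0.39 to -0.20). SmedASXL_015330 had 173 CPM in S/G2/M, 503 CPM in G1, 370 CPM in PM and 50.7 CPM in RNA-low, with S/G2/M well below both G1 (-1.54, interval -1.67 to -1.41) and PM (-1.09, interval -1.26 to -0.93). SmedASXL_014295 had 139 CPM in S/G2/M, 268 CPM in G1, 423 CPM in PM and 95.5 CPM in RNA-low. Its S/G2/M level was nearer to RNA-low than to PM. SmedASXL_013978 had 285 CPM in S/G2/M, 358 CPM in G1, 301 CPM in PM and 38.0 CPM in RNA-low. In that transcript S/G2/M, G1 and PM were close together, and the interval of S/G2/M over PM included equality (-0.23 to 0.07).

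The thresholds cut through a continuous range. On the level rule, SmedASXL_061328 was just inside with 50.3 CPM in PM, and SmedASXL_017143 was just outside with 49.6 CPM in G1. On the rule against RNA-low, SmedASXL_011985 was just inside at 2.02-fold and SmedASXL_005315 just outside at 1.997-fold. On the rule between G1 and PM, SmedASXL_008454 was just inside at 1.90-fold and SmedASXL_012058 just outside at 2.06-fold. SmedASXL_008454, the most abundant member, meets the rule only with column totals. Its log2 ratio of G1 over PM was -0.92 with them and -1.07 under trimmed mean of M values. It was -1.09 under median of ratios and -1.28 with totals without ribosomal RNA.

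By the S/G2/M level relative to G1 and PM, the members were divided into 3 patterns. In 43 members (54.4%) S/G2/M was at least 2-fold below both G1 and PM, against 11.7% of the 2007 other transcripts and 13.6% of all 2207 transcripts at 50 CPM or more in G1 and PM. In 10 members (12.7%) S/G2/M was above both, against 36.1% and 34.6%. The remaining 26 lay between these patterns. The members were chosen for high G1 and PM levels relative to RNA-low and the 2007 did not meet that criterion, so the shares in this and the next 3 comparisons are a description and support nothing about the members. RNA-low was the lowest gate for 67 members, and S/G2/M for the other 12. RNA-low was lowest for 5.83% of the 2007 and 9.70% of the 2207, a contrast that the rule itself used. Scaling moved the size of the first pattern to 36, 32 or 45 members under trimmed mean of M values (TMM), median of ratios and totals without ribosomal RNA. The same 10 members stood above both gates under all 4 scalings, joined by 2 under TMM and 4 under median of ratios.

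**Figure D1:**
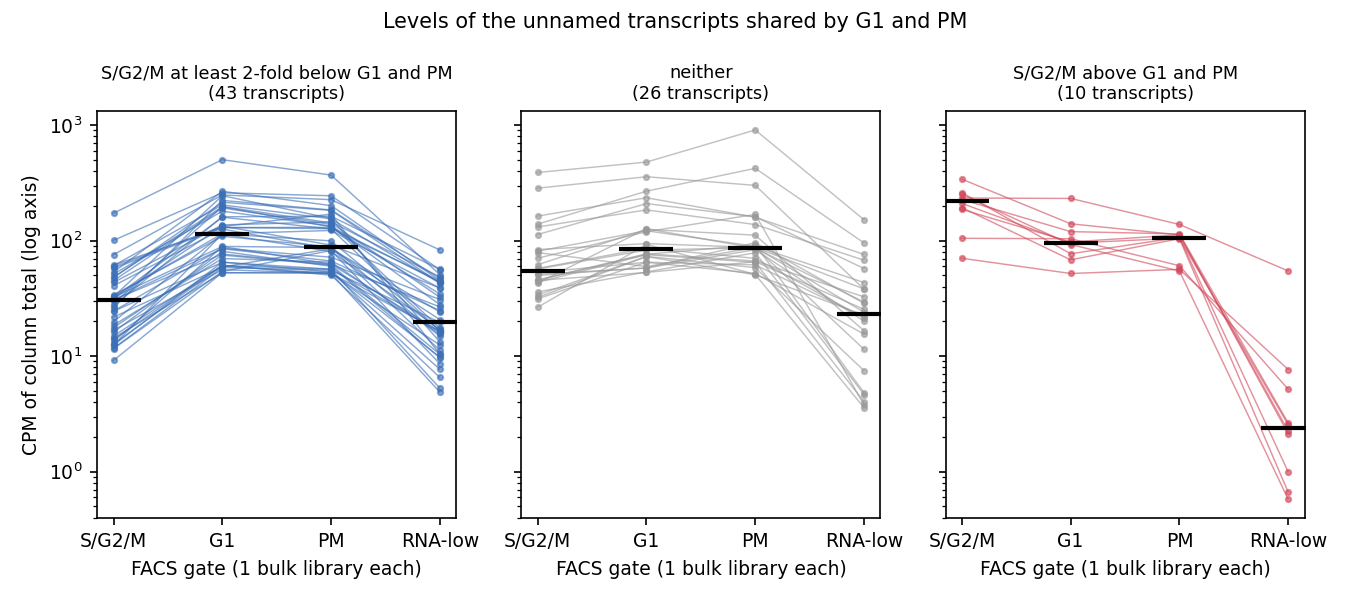
Levels of the 79 members in the 4 bulk libraries, in CPM of column totals on a log axis, with the gates along the x axis. Each line is 1 transcript, each black bar the median of its panel, and the panels hold the 43 members with S/G2/M at least 2-fold below G1 and PM, the 26 with neither pattern and the 10 with S/G2/M above G1 and PM. Most of these 10 drop to a few CPM or less in RNA-low, with a median of 2.40 CPM, while the medians of the other 2 panels in RNA-low are 19.6 and 23.3 CPM.

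Set against G1, S/G2/M held less of most members. On log2 of CPM with 0.5 added, the median member was at -1.39 (range -3.15 to 1.75), while the other 2007 transcripts had a median of -0.28 and all 11998 transcripts with 5 CPM or more in either gate a median of -0.29. S/G2/M was at least 2-fold lower for 49 members (62.0%), against 22.3% of all transcripts at 50 CPM or more in G1 and PM and 20.4% of the 2007. The share was 26.1% among the 11998. In place of 49 members, 41 were lower under TMM, 36 under median of ratios and 46 with totals without ribosomal RNA. The shares of other transcripts were computed with column totals only. S/G2/M was at least 2-fold higher for 5 members, or 6.33%, against 1.45% and 0.698%, and 6.32% among the 11998. The interval excluded equality in 64 of the 68 members that were below G1. The scaling moved the median of all transcripts by 0.31 under TMM and 0.47 under median of ratios. Relative to the median of all transcripts the members' median was -1.10, a difference that scaling hardly moves by construction.

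Set against PM, the result was close to that for G1, and since the rule holds G1 and PM within 2-fold the one does not add to the other. The median member was at -1.20 (range -2.95 to 2.19), the other 2007 transcripts at 0.15 and all 12797 transcripts at 5 CPM or more at -0.10. S/G2/M was at least 2-fold lower than PM for 48 members (60.8%), against 15.4% of the transcripts at 50 CPM or more and 12.7% of the 2007. The share was 29.1% among the 12797. In place of 48 members, 40 were lower under TMM, 36 under median of ratios and 53 with totals without ribosomal RNA. S/G2/M was at least 2-fold higher for 3 members, or 3.80%, against 11.9% and 11.4%, and 17.2% among the 12797. This number was 6 under TMM and 9 under median of ratios.

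Against RNA-low, S/G2/M stood higher for most members, a direction that the rule favours because it chose them for low RNA-low levels. The median log2 ratio was 0.90 (range -1.03 to 7.87), against -0.32 for the 2007 other transcripts and -0.26 for all 11933 transcripts at 5 CPM or more. S/G2/M was at least 2-fold higher for 35 members (44.3%), against 5.35% of the transcripts at 50 CPM or more and 2.54% of the 2007. The share was 12.9% among the 11933. In place of 35 members, 46 were higher under TMM, 49 under median of ratios and 39 with totals without ribosomal RNA. S/G2/M was at least 2-fold lower for 1 member, against 23.9% and 24.9%, and 28.4% among the 11933, and for 0 members under the other 3 scalings. S/G2/M lay above RNA-low, by any amount, for 67 members, against 39.9% of the 2207 and 37.4% of the 2007, and below it for 12. That number was 8 under TMM, 5 under median of ratios and 12 with totals without ribosomal RNA. The summed level was 2.82 times that of RNA-low (interval 2.77 to 2.87) and 1.74-fold lower than that of G1.

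**Figure D2:**
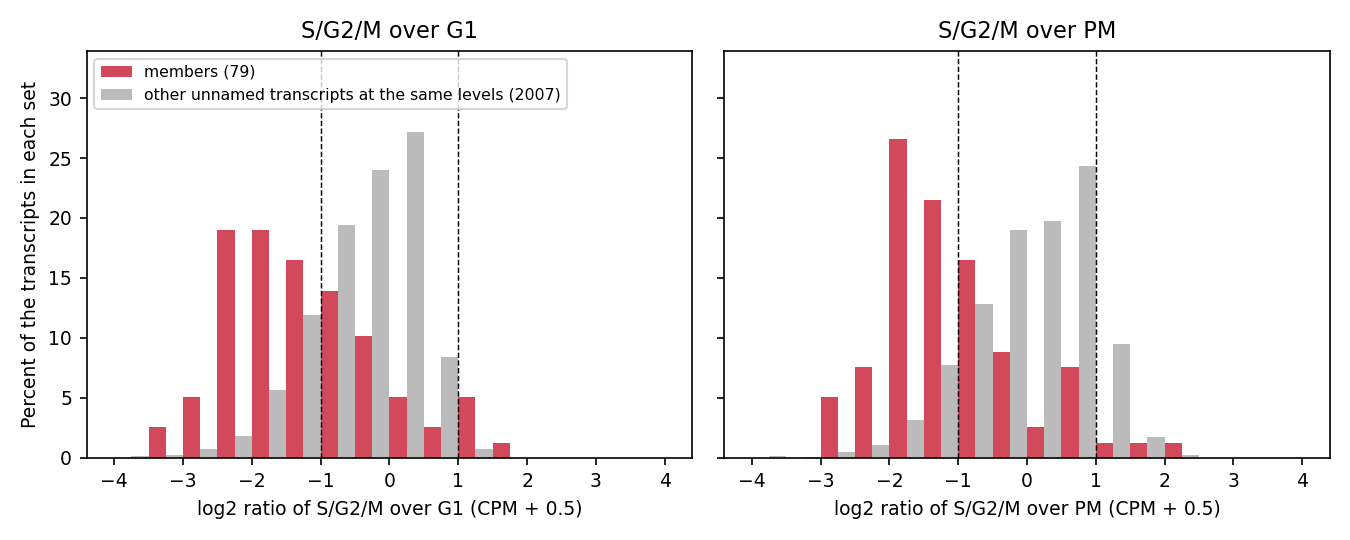
Log2 ratio of S/G2/M over G1 (left) and over PM (right), with 0.5 CPM added, for the 79 members and the 2007 other unnamed transcripts of 50 CPM or more in G1 and PM and less than 2-fold apart. Bars give the percent of each set per bin of 0.5, the bars of the 2 sets stand side by side within a bin, and dashed lines mark 2-fold. The members' medians are -1.39 and -1.20, left of the other transcripts' medians of -0.28 and 0.15, and a small group of members lies to the right of 0.

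The 43 members lowest in S/G2/M relative to G1 and PM summed to 1543 CPM in S/G2/M, 5791 CPM in G1, 4879 CPM in PM and 1137 CPM in RNA-low. Their sum in S/G2/M was 3.75-fold lower than in G1 (interval 3.64 to 3.86) and 1.36 times that in RNA-low (1.31 to 1.40). The pair with the lowest ratio to G1 were SmedASXL_018304 and SmedASXL_019713. SmedASXL_018304 had 12.4 CPM in S/G2/M, 114 CPM in G1, 99.5 CPM in PM and 16.6 CPM in RNA-low. Its S/G2/M and RNA-low libraries were both low, with an interval between them that included equality (log2 ratio -0.41, interval -0.94 to 0.06), and S/G2/M over G1 was -3.15 (interval -3.70 to -2.76). SmedASXL_019713 had 26.2 CPM in S/G2/M, 223 CPM in G1, 184 CPM in PM and 47.1 CPM in RNA-low. S/G2/M was the lowest of the 4 gates here, at -3.07 against G1 (interval -3.42 to -2.78) and -0.84 against RNA-low (interval -1.19 to -0.53).

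The 10 members highest in S/G2/M summed to 2079 CPM in S/G2/M, 1078 CPM in G1, 964 CPM in PM and 79.2 CPM in RNA-low. Their sum in S/G2/M was 1.93 times that in G1 (interval 1.86 to 2.00) and 26.2 times that in RNA-low (24.5 to 28.2). Their summed G1 level was 13.6 times RNA-low, against 5.09 times for the 43 members described before. Of the RNA-low sum of the 10, 54.6 CPM came from SmedASXL_004531 alone, so the ratios of sums do not describe the typical member. The median of the 10 was 84.6 times RNA-low for S/G2/M and 44.4 times for G1. For the 43, the median of G1 was 5.21 times RNA-low. SmedASXL_012786 had 261 CPM in S/G2/M, 77.0 CPM in G1, 107 CPM in PM and 0.993 CPM in RNA-low. S/G2/M was the highest gate by a log2 ratio of 1.75 over G1 (interval 1.59 to 1.93), and RNA-low was close to 0. SmedASXL_014728 had 194 CPM in S/G2/M, 68.2 CPM in G1, 104 CPM in PM and 0.662 CPM in RNA-low, where 38 reads were counted. SmedASXL_004096 had 251 CPM in S/G2/M, 92.6 CPM in G1, 54.6 CPM in PM and 0.575 CPM in RNA-low, where 33 reads were counted. The last 2 had the lowest RNA-low levels relative to the mean of G1 and PM, which was 130 and 128 times RNA-low. These folds rest on few reads. The log2 ratios of G1 over RNA-low had wide intervals, 5.62 to 7.84 for SmedASXL_014728 and 6.19 to 8.57 for SmedASXL_004096. In 2 of the 10, SmedASXL_004531 and SmedASXL_018890, named after their values were seen, S/G2/M and G1 could not be told apart (both log2 ratios 0.01, intervals -0.12 to 0.14 and -0.18 to 0.21).

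The 26 members between these patterns summed to 2248 CPM in S/G2/M, 3370 CPM in G1, 3699 CPM in PM and 865 CPM in RNA-low. Their S/G2/M sum was 0.667 times that in G1 and 2.60 times that in RNA-low. SmedASXL_008454, SmedASXL_014295 and SmedASXL_013978 belong to them.

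Among the unnamed transcripts at 50 CPM or more in G1 and PM, 3.64% were members, and 35 named transcripts reached that level. The same rule of levels was met by 10 of these 35. These were prog-1, prog1a, prog1c, prog-2, prog-2a, prog2b, prog2c, prog2d and prog2e, all early epidermal progeny transcripts, and reticulocalbin-1, which encodes a calcium-binding protein of the secretory pathway. The remaining prog transcripts did not meet these levels, and prog-1d, prog-1e, prog-1f, prog1g and prog-1j were highest in S/G2/M. Near-identical copies within the prog families can share reads, so levels of single copies are uncertain. Marker prog-2 had 1352 CPM in S/G2/M, 7935 CPM in G1, 4647 CPM in PM and 400 CPM in RNA-low. Marker prog-1 had 286 CPM in S/G2/M, 2156 CPM in G1, 1400 CPM in PM and 202 CPM in RNA-low. Both were highest in G1, and in G1 and PM they stood above every member. Reticulocalbin-1 had 183 CPM in S/G2/M, 591 CPM in G1, 444 CPM in PM and 204 CPM in RNA-low. All 10 named transcripts had S/G2/M at least 2-fold below both G1 and PM, with log2 ratios over G1 of -2.92 to -1.69, whereas 43 of the 79 members did.

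Named transcripts were also ranked by how close their profile was to the members' mean. Profiles were log2 of CPM with 0.5 added over the 4 libraries, each centred on its own mean, and likeness was the Euclidean distance to the mean profile of the 79 members. Of 91 named transcripts at 20 CPM or more in some gate, the 5 nearest were prog2g (distance 0.88), prog2d (1.02), prog2b (1.23), prog1a (1.23) and prog-2a (1.23). Taken one at a time, 40 of the 79 members had a prog transcript as their nearest named profile, and 17 of the 91 named transcripts were prog transcripts. These shares follow in part from the rule, which asks for a prog-like order of 3 gates.

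The nearest named profiles are given by S/G2/M pattern, as a description only, since pattern and distance come from the same 4 values and members high in S/G2/M must lie near named transcripts high in S/G2/M. It was a prog transcript for 24 of the 43 members low in S/G2/M, most often prog2g (13), with reticulocalbin-1 nearest for 9 and the kinesin gene Kif27 for 8. It was a prog transcript for 8 of the 10 members high in S/G2/M, namely prog-1e for 4, prog-1d for 3 and prog1g for 1, and NXK2.2_Dth-1, a homeobox gene that marks gamma neoblasts, for 2. These prog transcripts are themselves highest in S/G2/M, prog-1e with 68.4 CPM in S/G2/M, 30.6 CPM in G1, 18.7 CPM in PM and 0 CPM in RNA-low. It was a prog transcript for 8 of the 26 in between, and NXK2.2_Dth-1 for 10. The likeness is over 4 libraries, and nothing about shared function or control is read from it.

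Of the identifiers, 2 pairs of members were consecutive numbers, and both were named after their values were seen. SmedASXL_018684 had 51.1 CPM in S/G2/M, 57.9 CPM in G1, 83.6 CPM in PM and 20.0 CPM in RNA-low, and SmedASXL_018685 had 31.8, 160, 126 and 16.5 CPM in the same gates. SmedASXL_014728 is described above, and SmedASXL_014729 had 163 CPM in S/G2/M, 235 CPM in G1, 160 CPM in PM and 75.9 CPM in RNA-low. The 2 members of each pair did not share a profile (distances 1.64 and 4.83). Whether members share sequence or a gene was not tested.

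Single RNA-low cells were examined for the members that have a row in the single-cell table, 77 of the 79. Of 96 cells, 79 with at least 500 detected transcripts were kept and 17 were left out, and the kept cells happen to be as many as the members. Each of the 77 members was read in at least 1 kept cell. The number of kept cells with a read was 1 to 62 per member, with a median of 7 (8.86% of cells) and quartiles of 5 and 10. The 2007 other transcripts were read in a median of 13 kept cells (16.5%). Their median level in the RNA-low bulk library was 134 CPM, against 17.4 CPM for the members, so the sets are not matched in level. A read in at least 10% of kept cells was found for 38 of 77 members (49.4%), against 78.6% of the 2007. Counting only cells with 5 reads or more, 17 members reached 10%.

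Detection across cells did not follow the bulk RNA-low level closely. Members under 5 CPM in that library were read in a median of 9 kept cells (13 members), those of 5 to 15 CPM in 5 cells (16 members), those of 15 to 30 CPM in 7 (23 members) and those of 30 CPM or more in 8 (25 members). By S/G2/M pattern, the median was 5 cells for members low in S/G2/M, 9.5 for members high in S/G2/M and 9 for those between. SmedASXL_012786, at 0.993 CPM in the RNA-low bulk library, had reads in 19 of 79 kept cells (24.1%, interval 15.1 to 35.0) and in 2 of the 17 left out. SmedASXL_014728 had reads in 12 kept cells and 1 left out, and SmedASXL_004096 in 9 kept cells and none of those left out.

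**Figure D3:**
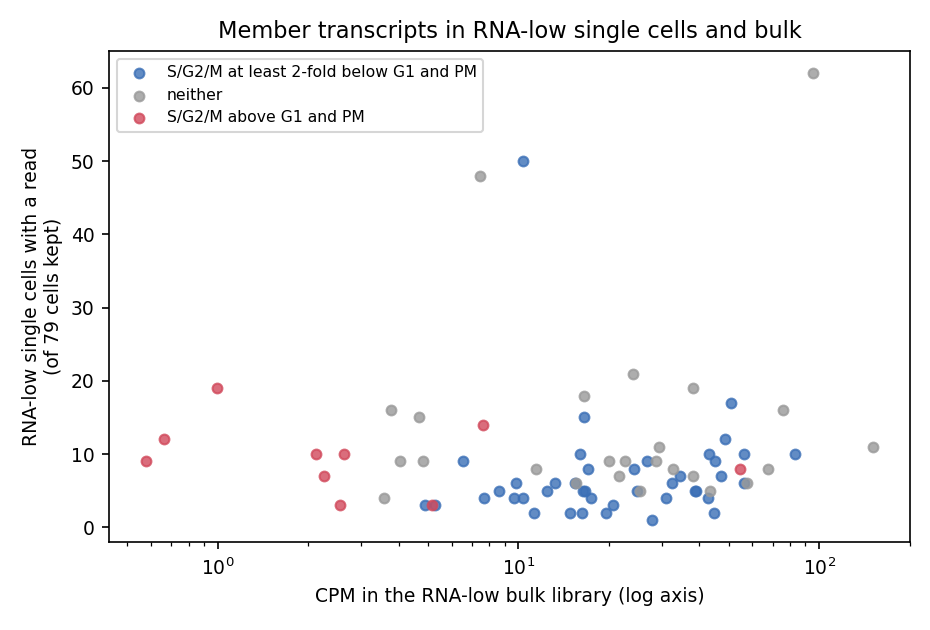
Number of the 79 kept RNA-low cells with at least 1 read (y axis) against the CPM in the RNA-low bulk library (x axis, log), for the 77 members with single-cell data, 1 point per transcript and coloured by S/G2/M pattern. Most members high in S/G2/M lie at the left, at 3 to 19 cells, and 3 members stand above the rest at 48, 50 and 62 cells.

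Reads in more than 39 of the 79 kept cells were found for 3 members. SmedASXL_014295 was read in 62 kept cells (78.5%, interval 67.8 to 86.9) and SmedASXL_018034 in 50 (63.3%, interval 51.7 to 73.9). SmedASXL_014829, named after its values were seen, was read in 48 (60.8%, interval 49.1 to 71.6). All 3 were also read in many of the cells left out, as 14, 7 and 9 of 17. In bulk, SmedASXL_018034 had 59.3 CPM in S/G2/M, 133 CPM in G1, 170 CPM in PM and 10.4 CPM in RNA-low, and SmedASXL_014829 had 33.8, 73.1, 58.3 and 7.48 CPM in the same gates. The left-out cells held fewer transcripts, yet their shares were 82.4%, 41.2% and 52.9%, so the kept shares of these 3 are not read as expression. The same holds for SmedASXL_018712 and SmedASXL_049390, which are flagged below. They were read in 41.2% and 35.3% of left-out cells, and in 17.7% and 26.6% of kept cells. Over all members with single-cell data, the median share was 5.88% of left-out cells and 8.86% of kept cells. Whether reads in left-out cells are background was not tested.

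The number of members read per cell varied widely. Kept cells had reads of 1 to 39 of the 77 members, with a median of 7, and left-out cells of 1 to 11, with a median of 5. At least 5 members were read in 63 of 79 kept cells (79.7%, interval 69.2 to 88.0) and 11 of 17 left-out cells (64.7%, interval 38.3 to 85.8). At least 10 were read in 20 kept cells (25.3%) and 2 left-out cells (11.8%), and at least 20 in 9 kept cells (11.4%) and none of the 17. Median transcripts detected were 2075 in kept cells and 389 in left-out cells. Of all reads that were not ribosomal RNA, members made up 0.195% in the median kept cell and 0.163% in the median left-out cell. In the bulk libraries that share was 0.751% in S/G2/M, 1.23% in G1, 1.47% in PM and 0.250% in RNA-low.

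Cells with prog-1 reads held more members. The 21 kept cells with prog-1 reads had a median of 11 members (range 4 to 39), and the 58 without had 6 (range 1 to 23). The cells with prog-1 reads had fewer detected transcripts, a median of 1819 against 2098, and a like number of reads other than ribosomal RNA, a median of 152963 against 160156. Members took a median of 0.446% of those reads in cells with prog-1 reads and 0.143% in cells without. The share of cells with a read was higher in cells with prog-1 reads for 69 of 77 members (89.6%), against 67.3% of the 2007 other transcripts. The median member was read in 19.0% of cells with prog-1 reads and 6.90% of cells without, and the median other transcript in 19.0% and 15.5%. Members were read together in the same cells, and 7 of the 9 cells with 20 or more members had prog-1 reads. The 77 members are therefore not separate observations. The 2007 are not matched to them, with a median of 134 CPM in RNA-low bulk against 17.4 CPM. Some cells count as having prog-1 reads on 1 read. These limits hold for the splits below as well. All cells count as 1 sample, so no test was made.

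The same split was made by 2 further genes. The 36 kept cells with prog-2 reads had a median of 8.5 members, against 6 in the 43 without, but also more detected transcripts, 2468 against 1819. Members read in a higher share of cells with prog-2 reads numbered 69 of 77 (89.6%), as for prog-1, against 73.2% of the other transcripts. The median member was read in 13.9% of cells with prog-2 reads and 6.98% of cells without. For the median other transcript these shares were 19.4% and 14.0%. The members' share of reads that were not ribosomal RNA had a median of 0.170% in cells with prog-2 reads and 0.196% in cells without. Cells with piwi-1 reads (51) and cells without (28) both had a median of 7 members. Some of the 51 had 1 piwi-1 read. Of the 17 left-out cells, 6 (35.3%) had piwi-1 reads, 3 had prog-2 reads and 2 had prog-1 reads. The splits by these genes are therefore rough. For piwi-1, which marks neoblasts, 48 of 77 members (62.3%) were read in a higher share of cells with its reads, against 68.1% of the other transcripts.

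**Figure D4:**
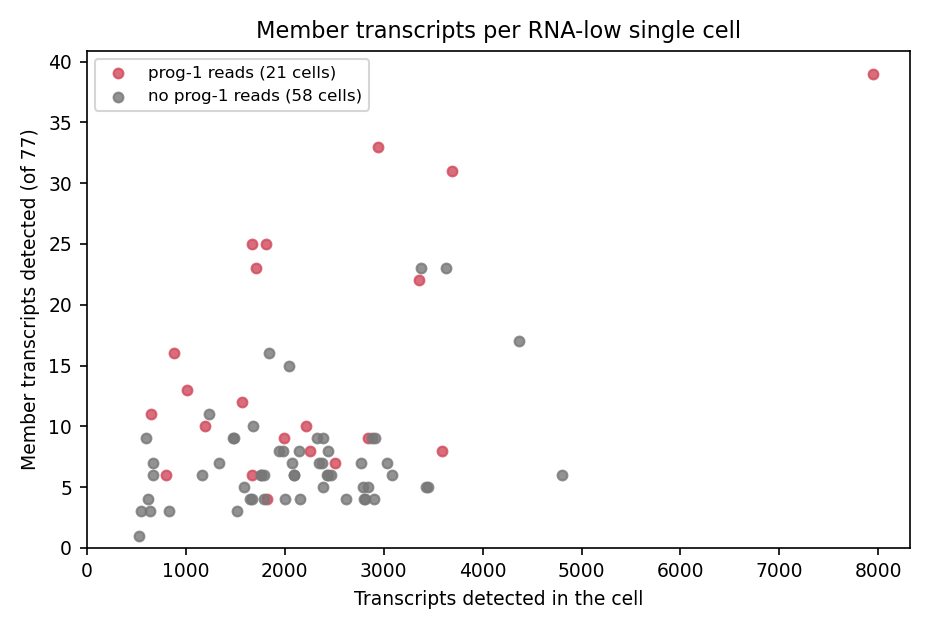
Members detected per kept RNA-low cell (y axis, of 77) against all transcripts detected in that cell (x axis), 1 point per cell. Cells with prog-1 reads (21) and without (58) are coloured apart, and 7 of the 9 cells with 20 or more members have prog-1 reads.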

How the data were processed

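The authors deposited 2 tables of read counts per transcript, whole numbers and not normalized, for 4 bulk libraries and 96 single cells. Per the submitters' processing notes, bcl2fastq 1.8.3 and Bowtie2 were used. How reads were counted, and against which transcripts, is not given in the sources used here, and reads shared by similar transcripts may be divided between them. RNA-low bulk values were read from the column headed G0, the prefix of all RNA-low single-cell columns, since the remaining 3 columns name other gates. CPM were computed from column totals. Members and gene lists were chosen with earlier results of these data known.

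Ratios are log2 of CPM with 0.5 added, called at 2-fold. Intervals of ratios are exact 95% conditional binomial intervals on estimated fragments, of the CPM ratio without the 0.5. Intervals of shares of cells are Clopper-Pearson intervals on numbers of cells, which share 1 sample. Reads per fragment were taken from the peak of the distribution of counts, a rough estimate. Cells needed at least 500 detected transcripts, and no doublet caller was run. TMM and median-of-ratios factors came from edgeR 4.0.16 under R 4.3.3, and all else from Python 3.11.15 with pandas 2.3.3, NumPy 2.4.6 and SciPy 1.17.1. The rule was checked on a small made-up table. Ratios and intervals were checked on counts simulated with counting error only, which the intervals assume. That check does not bear on the estimate of reads per fragment or on variation between libraries. Transcripts named by identifier were the 4 most abundant members, the 2 lowest and 2 highest in S/G2/M over G1, the 2 lowest in RNA-low over the mean of G1 and PM, the 2 read in most kept cells and those next to each threshold, and others are marked. Named genes were those meeting the same levels and the 5 nearest to the mean profile.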

Additional observations from a re-analysis of the deposited data

Results flagged for a closer look

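Cells left out for fewer than 500 detected transcripts enter no comparison between gates. Reads of 5 members were found in more than 3 of these 17 cells (17.6%). That limit was fixed for flagging and is not a measured background. SmedASXL_014295 was read in 14 of the 17 left-out cells, SmedASXL_014829 in 9, SmedASXL_018034 in 7, SmedASXL_018712 in 7 and SmedASXL_049390 in 6. In the 79 kept cells they were read in 62, 48, 50, 14 and 21 cells.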

How the results depend on the processing

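No paired analysis was possible because each gate has 1 library and no result comes from a test. For the same reason no library could be left out. Of 49 alternatives over 9 results, 13 moved a value beyond the limit set for it. Only the median log2 ratios have a sign that could reverse, and none of them did. The order of G1 and PM, which turned with the scaling, was not among the 9 results. The number of members was 79, and it was 147 with totals without ribosomal RNA, 198 at 20 CPM and 30 at 100 CPM. At 20 and 100 CPM, S/G2/M was at least 2-fold lower than G1 for 126 and 20 members, lower than PM for 120 and 22, and higher than RNA-low for 89 and 12. These counts are out of 198 and 30 members, so they change with the size of the set. The median log2 ratio of S/G2/M over G1 was -1.08 under TMM and -0.92 under median of ratios. The median of all transcripts rose by 0.31 and 0.47 under the same scalings. Median of ratios within the rule, chosen after seeing the data, kept 77 transcripts. The median over RNA-low was 1.30 under median of ratios, where that of all transcripts rose by 0.40. At 5 reads or more, 17 members reached 10% of kept cells. The cause of the remaining moves was not tested. Under all 4 scalings, 68 members met the rule. The precision is limited by 1 library per gate, by the choice of scaling, by repeated reading of fragments (22 reads per fragment in S/G2/M and 26 in PM) and by levels near 0 in RNA-low.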

Other observations

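At least 20 members were read in 9 of the 79 kept cells, and the next cell had 17. All 9 had prog-2 reads, 7 had prog-1 reads and 7 had piwi-1 reads, with 1667 to 7946 detected transcripts. Among all 79 kept cells, 45.6% had prog-2 reads, 26.6% prog-1 reads and 64.6% piwi-1 reads. The cell with most members, 39, also had the most detected transcripts. Its counts were 285 reads of piwi-1, 10 of prog-2 and 3 of prog-1. The cell with 33 members had 87 reads of piwi-1, 119 of prog-2 and 138 of prog-1. These 2 cells had the most piwi-1 reads of the 9, and the rest had 0 to 26. Of the 10 members high in S/G2/M, at least 1 was read in 51 of 79 kept cells (64.6%, interval 53.0 to 75.0) and in 12 of 17 left-out cells (70.6%, interval 44.0 to 89.7).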
